A study of Saccharomyces cerevisiae with 2 samples.

Results

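The genes described here are the 5 aldehyde dehydrogenase genes ALD2 to ALD6, the acetyl-CoA synthetase genes ACS1 and ACS2 and the CoA-transferase gene ACH1 of the budding yeast Saccharomyces cerevisiae. They were found by gene name, and all 8 were measured among the 6716 genes of the deposited tables. The data are 2 RNA-Seq libraries, 1 of a strain isolated from Chinese rice wine and 1 of BY4741, a laboratory strain derived from S288c that carries genetic deletions for selection. The rice wine strain is labelled wild type and named YHJ8 in the labels and YHJ7 in the study's text, where it is described as a haploid made by sporulation. The labels give BY4741 as MATa with his△1 and leu2△0, and with lys2△0 and ura3△0. Both strains were grown in 25 mL of YPD, a rich glucose medium, from an initial OD600 of 0.05, and RNA was taken at early stationary phase. The labels give the medium as 1 g of yeast extract, 2 g of peptone and 2 g of glucose per litre, and the study's methods give another composition. Each library pooled 2 biological replicates. With 1 library a strain the spread between cultures was not measured, so every difference below is without a check by replicates and is given with no p-value.

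Each table is attached to the sample of the other strain, and the strain was assigned by the column heading. In the library headed BY4741, LEU2, URA3 and MET17 had 0 fragments, against 473, 768 and 240 in the other library. HIS3 and LYS2, both carrying a deletion according to the labels, had 548 and 1348 fragments there. The LYS2 value goes against the labelled genotype, and the genotype given above names no deletion of MET17, which was at 0. The authors' table of comparisons, which names the strains itself, lists LEU2, URA3 and MET17 at 0 FPKM in BY4741 and at 74.5, 153.6 and 28.1 FPKM in the rice wine strain, and gives all 8 genes the same direction as the headings. Below, the strain names follow the headings. The number of fragments on genes was 1.02e+07 in BY4741 and 8.17e+06 in the rice wine strain. The summed FPKM was higher in the rice wine strain by 0.21 on the log2 scale. FPKM gives the fragments of a gene relative to its length and to the size of the library. Levels can thus be compared between genes of different length. The deposited FPKM follow counts already divided by a factor for each library, and not the fragments on genes. As a share of those fragments the 8 genes together held 1.47% in BY4741 and 1.43% in the rice wine strain. Their summed FPKM was 7752 and 9441. Every fold difference between the libraries below rests on that factor. Each FPKM is followed by the 95% interval that the number of fragments allows. These intervals cover counting error only.

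Aldehyde dehydrogenases oxidize acetaldehyde, the product of pyruvate decarboxylase, to acetate. Acetyl-CoA synthetases then join acetate to coenzyme A, and this route around the mitochondrial pyruvate dehydrogenase supplies the cytosol and nucleus of yeast with acetyl-CoA for lipid synthesis and histone acetylation. Yeast cells that ferment glucose excrete ethanol and acetate, and once glucose is used up they take both back along the same enzymes and burn them in the mitochondria. Ald6, Ald2 and Ald3 are cytosolic enzymes and Ald4 and Ald5 are mitochondrial ones. The genes ALD4 and ACS1 are known to be repressed by glucose, and ALD2 and ALD3 to be induced by stress.

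ALD4, which encodes the major mitochondrial isozyme, was 2.90-fold higher in the rice wine strain, and ALD5, which encodes the minor mitochondrial isozyme, was 5.21-fold lower. These were the only members that differed at least 2-fold in either direction. The other 6 differed by 1.19-fold to 1.54-fold in FPKM, with ACS1 and ACS2 higher and ALD2, ALD3, ALD6 and ACH1 lower in the rice wine strain. These sizes depend on how the libraries are scaled. With the same summed FPKM in both, the log2 difference of ALD3 was -0.83 in place of -0.62, and that of ACS1 0.12 in place of 0.33. Differences are given below on the scale of log2(FPKM + 1), rice wine strain minus BY4741. On that scale 1 of the 8 genes was at least 2-fold higher, beside 12.4% of all genes, and 1 was at least 2-fold lower, beside 9.84% of all genes. In the 5671 genes whose mean FPKM reached 10, which include all 8, the background was 13.7% higher and 6.82% lower. These shares are near the background, so the count of differing members is no result about the group. The median difference of the 8 genes was -0.28, beside 0 over all genes, and 25% of all genes lay below -0.44 and 25% above 0.51. Only ALD5 differed at least 4-fold, which 3.75% of all genes did in its direction and 2.74% in the other. At 1.5-fold ALD3 joined ALD5 among the lower genes, beside 19.1% of all genes, while ALD4 remained the only higher one, beside 22.4%.

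**Figure D1:**
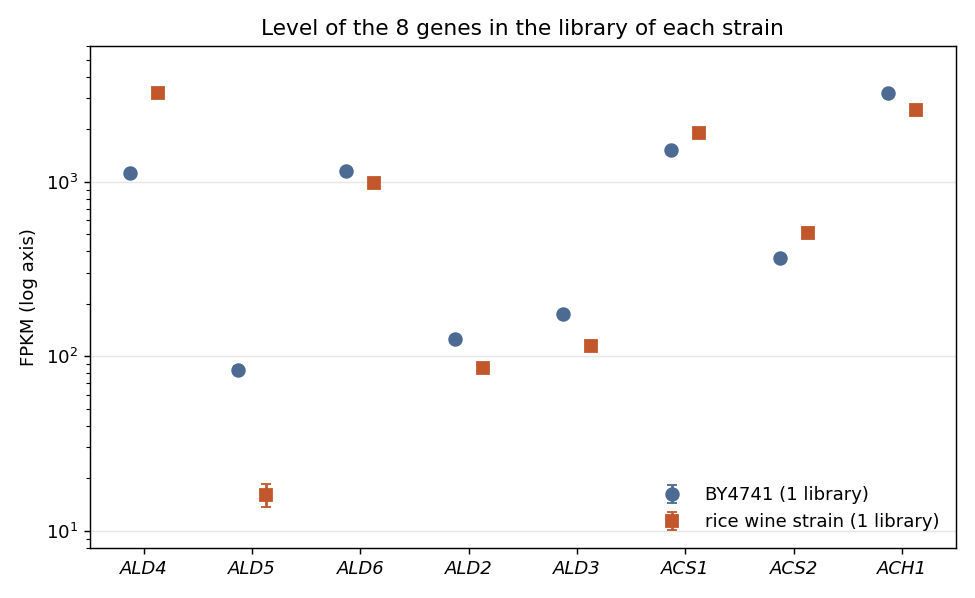
FPKM (log axis) of the 8 genes in the BY4741 library (circles) and the rice wine strain library (squares), 1 library per strain. Bars are 95% counting intervals, most of them smaller than the symbols; ALD4 is higher in the rice wine strain at 3244 against 1119 FPKM, and ALD5 lower at 15.9 against 83.1 FPKM.

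The reference sequence upstream of ALD4 and ALD5, the genes that differed most, is shown first, to set side by side what lies in front of both. It was read from the S288c assembly R64, the assembly named sacCer3 in the labels, in which the files place all 8 genes at the same positions. Each line runs 5′ to 3′ on the strand of the gene, and holds the 150 bases that begin 250 bases before the start codon. Capitals mark matches to AGGGG (the stress response element bound by Msn2 and Msn4), CCAAT (the box of the Hap2/3/4/5 activator of respiratory genes) or TGACTCA (the site of Gcn4, the activator of amino acid synthesis), on either strand. The ALD4 stretch is chrXV:1039590-1039739 on the plus strand, and the ALD5 stretch is chrV:303780-303929 on the plus strand.
ALD4: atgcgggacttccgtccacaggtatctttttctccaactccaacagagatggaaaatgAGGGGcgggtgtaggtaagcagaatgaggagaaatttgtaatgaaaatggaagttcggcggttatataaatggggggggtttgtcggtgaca
ALD5: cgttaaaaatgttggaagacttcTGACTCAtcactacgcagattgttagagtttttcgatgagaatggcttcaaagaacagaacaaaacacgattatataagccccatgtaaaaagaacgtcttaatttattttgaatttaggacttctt

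The ALD4 stretch held 1 AGGGG and the ALD5 stretch 1 TGACTCA. Over windows of 300 bases, from 250 before to 50 after the first base of the start codon, AGGGG was found in front of 4 of the 8 genes (ALD3, ALD4, ALD6 and ACH1), and in 21.6% of the 6001 windows of all protein-coding nuclear genes. TGACTCA was found in front of ALD3 and ALD5 and in 2.73% of all windows. CCAAT was found in the windows of ALD2 and ALD4, in ALD4 after the start codon, and in 43.3% of all windows. No motif was found in the windows of ACS1 and ACS2. A match gives the letters in the reference and not a bound site, and the sequence of the rice wine strain was not used.

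ALD4 (YOR374W, chromosome XV, 1039840 to 1041399) had an FPKM of 1119 (1103 to 1134) in BY4741 and 3244 (3211 to 3277) in the rice wine strain. These levels rest on 19707 and 36345 fragments. The library of the rice wine strain is the higher one by far more than counting error, with a log2 ratio of 1.54 and an interval of 1.51 to 1.56. By level, ALD4 was the gene of rank 264 in BY4741 and of rank 114 in the rice wine strain, and 94.4% of all genes had a lower difference than ALD4. Its neighbours were closer in level between the libraries. GDH1, a glutamate dehydrogenase gene 278 bases downstream, had 742 FPKM in BY4741 and 772 in the rice wine strain, and NUD1, a spindle pole gene 450 bases upstream, had 15.9 and 11.0 FPKM.

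ALD5 (YER073W, chromosome V, 304030 to 305592) went the other way. Its FPKM was 83.1 (78.9 to 87.4) in BY4741 and 15.9 (13.7 to 18.5) in the rice wine strain, from 1467 and 179 fragments. This is the least covered member, and the counting interval of the 5.21-fold difference runs from 4.46-fold to 6.12-fold. ALD5 stood above 69.6% of all genes in BY4741 and above 26.0% in the rice wine strain, and 2.92% of all genes had a lower difference than ALD5. The gene next to it downstream, the ribosomal protein gene RPS24A, was higher in the rice wine strain, at 870 FPKM in BY4741 and 1992 in the rice wine strain. VTC1, a polyphosphate synthase subunit gene on the other side, had 505 FPKM in BY4741 and 422 in the rice wine strain. Reads of both strains were mapped to S288c, so bases that differ in the rice wine strain can lower the number of mapped fragments of any gene here. Their part in the ALD5 value was not tested.

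The mitochondrial genes thus differed in opposite directions. The FPKM of ALD4 was 13.5 times that of ALD5 in BY4741 and 203 times in the rice wine strain. Their coding sequences are 64.3% identical in the reference, and the longest stretch they share is 14 bases. In RNA from whole cultures, fewer cells that transcribe a gene and less RNA per cell cannot be told apart.

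**Figure D2:**
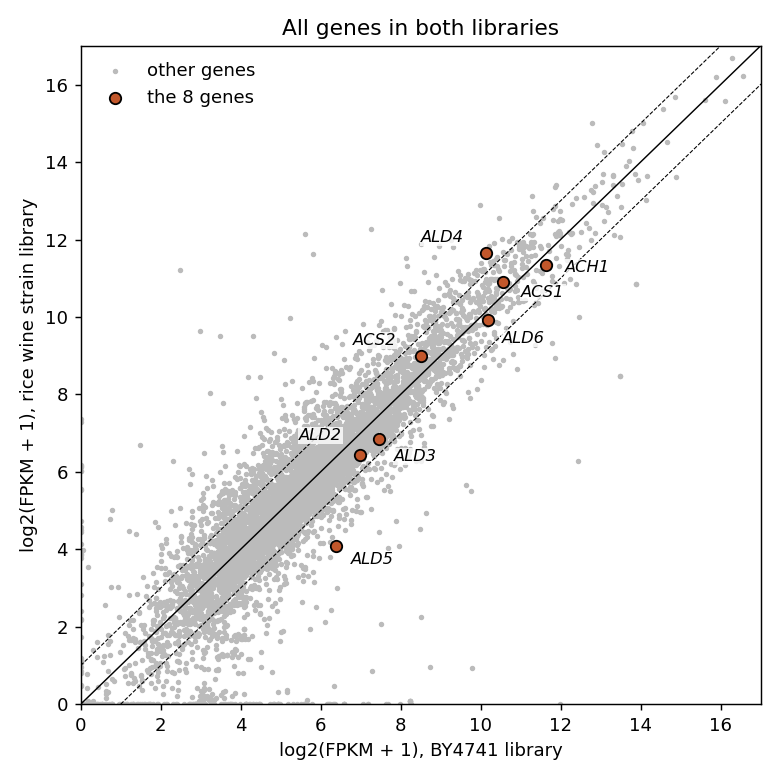
Each point is 1 gene, placed by its log2(FPKM + 1) in the BY4741 library (x axis) and in the rice wine strain library (y axis), with the 8 genes labelled. The solid line marks equal levels and the dashed lines a 2-fold difference; ALD4 lies above the upper dashed line and ALD5 below the lower one, with differences of 1.54 and -2.31, and the other 6 lie between the lines.

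ALD6 (YPL061W, chromosome XVI, 432588 to 434090) encodes the main cytosolic isozyme of cells on glucose, which also makes NADPH. Its FPKM was 1160 (1143 to 1176) in BY4741 and 978 (959 to 997) in the rice wine strain. It was thus 1.19-fold lower in the rice wine strain, with a log2 ratio of -0.25 and a counting interval of -0.28 to -0.21. The genes beside ALD6 were low in both libraries, with YPL062W at 1.89 and 1.19 FPKM and MFM1, a mitochondrial magnesium transporter gene, at 18.7 and 13.4 FPKM in BY4741 and the rice wine strain.

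ALD2 (YMR170C, 601562 to 603082) and ALD3 (YMR169C, 599352 to 600872) lie in tandem on chromosome XIII, 689 bases apart. Their products oxidize the aldehyde of polyamine breakdown to beta-alanine, a precursor of coenzyme A. The FPKM of ALD2 was 126 (120 to 131) in BY4741 and 86.2 (80.8 to 91.9) in the rice wine strain. That of ALD3 was 175 (169 to 182) and 114 (108 to 120). Both were lower in the rice wine strain, by 1.46-fold for ALD2 and 1.54-fold for ALD3, and ALD3 was the higher of the pair in both libraries, 1.39-fold in BY4741 and 1.32-fold in the rice wine strain.

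The 2 genes are near copies, so their values are not independent. Over the 1521 bases of their coding sequences 125 bases differ, and 91.8% are identical. The first 329 bases are the same in both, and 22.5% of all stretches of 100 bases of ALD2 are found letter for letter in ALD3. The end of the shared run is printed here because it shows where a read begins to tell the genes apart. The lines hold bases 270 to 359 of each coding sequence, with differing bases in capitals, from chrXIII:602724-602813 for ALD2 and chrXIII:600514-600603 for ALD3, both on the minus strand.
ALD2: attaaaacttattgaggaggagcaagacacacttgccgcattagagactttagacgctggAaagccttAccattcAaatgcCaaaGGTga
ALD3: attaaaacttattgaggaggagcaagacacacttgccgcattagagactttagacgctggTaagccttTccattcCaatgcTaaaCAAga

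Of the 90 bases shown, the first 60 are the same and 7 of the next 30 differ. How fragments that match both genes were divided is not given in the sources used here. In the authors' table of comparisons ALD2 is at 68.7 FPKM in BY4741 and 50.4 in the rice wine strain, and ALD3 at 119 and 75.7 FPKM, lower levels than in the per-library tables with the same direction. The sum of both genes in the per-library tables was 301 FPKM in BY4741 and 200.1 in the rice wine strain, a log2 ratio of -0.59.

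The upstream stretches of the pair, over the same 150 bases, are shown in the same way as those above to let the reader compare genes whose coding sequences are so alike. They are chrXIII:603183-603332 for ALD2 and chrXIII:600973-601122 for ALD3, both on the minus strand.
ALD2: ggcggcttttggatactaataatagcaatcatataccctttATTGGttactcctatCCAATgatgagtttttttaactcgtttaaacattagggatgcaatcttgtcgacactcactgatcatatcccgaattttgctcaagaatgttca
ALD3: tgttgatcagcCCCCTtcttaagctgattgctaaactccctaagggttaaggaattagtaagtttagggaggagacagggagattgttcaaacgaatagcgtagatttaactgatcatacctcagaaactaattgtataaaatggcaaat

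The ALD2 stretch held CCAAT on both strands, and the ALD3 stretch held the reverse complement of AGGGG. No AGGGG was found in the window of ALD2, which says only that these letters are not in that window.

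The FPKM of the 5 ALD genes summed to 2662 in BY4741 and 4438 in the rice wine strain, and their make-up differed. In BY4741 ALD4 and ALD6 were nearly level, with 42.0% and 43.6% of the summed FPKM. In the rice wine strain ALD4 held 73.1% and ALD6 22.0%. ALD3 held 6.58% in BY4741 and 2.57% in the rice wine strain, ALD2 4.72% and 1.94%, and ALD5 3.12% and 0.359%. The FPKM of ALD4 was 0.965 times that of ALD6 in BY4741, with a counting interval of 0.946 to 0.984, and 3.32 times in the rice wine strain, with an interval of 3.25 to 3.39. Summed over ALD4 and ALD5, the mitochondrial genes had 45.1% of the family's FPKM in BY4741 and 73.5% in the rice wine strain. The sum of the cytosolic genes ALD2, ALD3 and ALD6 was 1461 FPKM in BY4741 and 1178 in the rice wine strain, and that of the mitochondrial genes was 1202 and 3260. A share within a library does not depend on how that library was scaled, and no spread between cultures can be set against the difference.

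**Figure D3:**
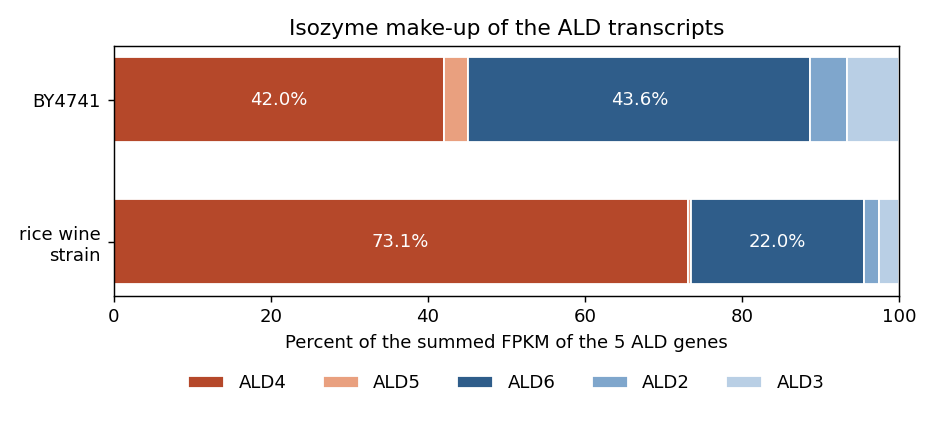
Percent of the summed FPKM of the 5 ALD genes held by each gene, in the BY4741 library (upper bar) and the rice wine strain library (lower bar). Red shades are the mitochondrial isozymes and blue shades the cytosolic ones; the ALD4 part is 42.0% in BY4741 and 73.1% in the rice wine strain.

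ACS1 (YAL054C, chromosome I, 42881 to 45022), the synthetase gene that serves growth on acetate and ethanol, had an FPKM of 1516 (1500 to 1531) in BY4741 and 1905 (1883 to 1926) in the rice wine strain. It was 1.26-fold higher in the rice wine strain. ACS2 (YLR153C, chromosome XII, 445524 to 447575), the synthetase gene needed on glucose, had an FPKM of 367 (359 to 375) and 512 (500 to 523), and it was 1.39-fold higher. By the deposited FPKM, both synthetase genes were thus somewhat higher in the rice wine strain. The levels of ACS1 were the higher ones in both libraries. As a share of the fragments on genes, the pair held 0.459% in BY4741 and 0.469% in the rice wine strain. ACS1 had 38141 of 1.02e+07 fragments in BY4741 and 30484 of 8.17e+06 in the rice wine strain. The higher FPKM of ACS1 thus rests on the library factor, which its counting intervals do not cover. ACS1 held 80.5% of the summed FPKM of the pair in BY4741 and 78.8% in the rice wine strain, so their proportion was far closer between the strains than that of ALD4 and ALD6. The ACS1 and ACS2 coding sequences are 63.3% identical, with a longest shared stretch of 20 bases. PEX22, a peroxisome gene 161 bases from ACS1, was lower in the rice wine strain, at 96.0 FPKM in BY4741 and 32.7 in the rice wine strain, and RNH203, a ribonuclease H2 subunit gene 406 bases from ACS2, was higher, at 89.9 and 199.8 FPKM.

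ACH1 (YBL015W, chromosome II, 194122 to 195702) encodes a mitochondrial enzyme that moves coenzyme A from succinyl-CoA to acetate. It was the highest member in BY4741, at 3208 FPKM (3181 to 3234), and the second in the rice wine strain, at 2587 FPKM (2557 to 2616). The difference was 1.24-fold, lower in the rice wine strain, with a log2 ratio of -0.31 and a counting interval of -0.33 to -0.29. The neighbouring gene FUS3, a kinase of the pheromone response, was at 84.7 FPKM in BY4741 and 7.05 in the rice wine strain.

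In BY4741 the order of the levels was ACH1, ACS1, ALD6, ALD4, ACS2, ALD3, ALD2 and ALD5. In the rice wine strain it was ALD4, ACH1, ACS1, ALD6, ACS2, ALD3, ALD2 and ALD5. The closest neighbours were ALD6 and ALD4 in BY4741, which differed 1.04-fold. All neighbours in either order differed by more than counting error, and whether they differ beyond the spread between cultures was not measured. The orders differ in the place of ALD4, the fourth in BY4741 and the first in the rice wine strain, and the other 7 genes follow each other in the same order.

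The genes around this route were counted in lists, beside the median of 0 over all genes. Each count past 2-fold stands beside 12.4% of all genes higher and 9.84% lower, and nothing is read from 1 or 2 such genes in lists this short. Scaling both libraries to the same summed FPKM lowers each list median by about 0.21. Among 4 other genes of the aldehyde dehydrogenase family, 1 was lower by 2-fold or more and none was higher by as much, and the median difference of 0.14 turned to -0.08 under that scaling. The lower gene was UGA2, the succinate semialdehyde dehydrogenase of GABA breakdown, with 381 FPKM in BY4741 and 107 in the rice wine strain. HFD1, a fatty aldehyde dehydrogenase gene, had 488 and 570 FPKM, and PUT2, of proline breakdown, had 129 and 133. Among the 3 pyruvate decarboxylase genes, which make the acetaldehyde, PDC6 was lower, at 206 FPKM in BY4741 and 48.4 in the rice wine strain. PDC1, the main isozyme gene, had 1609 FPKM in BY4741 and 1140 in the rice wine strain, and the median of the list was -0.50.

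None of the 7 genes of the pyruvate dehydrogenase complex and its kinases differed 2-fold, and their median difference was -0.23. The most abundant of them, PDB1, had 716 FPKM in BY4741 and 1315 in the rice wine strain. None of 5 genes of the carnitine shuttle, which carries acetyl groups into mitochondria, differed 2-fold either, and CRC1, the carnitine carrier gene, had 1003 and 1123 FPKM. Their median was 0.16, and -0.05 under the scaling to the same sum. Of 7 genes of acetate transport and response, with a median of 0.26, 1 was at least 2-fold higher. It was ATO3, a gene of the acetate and ammonium transporter family, with 289 FPKM in BY4741 and 743 in the rice wine strain.

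Of 8 genes whose enzymes use acetyl-CoA, 1 was higher and 1 was lower by 2-fold or more, with a median of -0.21. The higher one was ACC1, the acetyl-CoA carboxylase gene that starts fatty acid synthesis, at 86.8 FPKM in BY4741 and 369 in the rice wine strain. The lower one was LEU4, an isopropylmalate synthase gene of the leucine pathway, at 1035 FPKM in BY4741 and 332 in the rice wine strain. LEU2, 2 steps further on in that pathway, is deleted in BY4741, and the part of that deletion in the LEU4 value was not tested. LEU4 has a close copy, LEU9, and reads that match both make its level uncertain. None of 10 genes of beta-alanine, pantothenate and coenzyme A synthesis differed 2-fold, with a median of -0.18, and CAB2, the most abundant of them in BY4741, had 209 FPKM there and 104 in the rice wine strain.

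Of 12 regulator genes, 2 were at least 2-fold higher, near the 12.4% of all genes, and none was lower by as much. SIP4, an activator of gluconeogenic genes, had 22.9 FPKM in BY4741 and 58.3 in the rice wine strain, and MSN4, which encodes a stress response activator, had 31.5 and 87.6. The median difference of the regulators was 0.17, and -0.04 under the scaling to the same sum. All 12 ribosome biogenesis genes were at least 2-fold higher in the rice wine strain, beside 12.4% of all genes, with differences from 1.02 to 2.75 and a median of 1.68. These genes are known to be transcribed most in growing cells. For ALD4, ALD5 and the other members, strain and state of growth cannot be told apart with 1 library a strain.

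**Figure D4:**
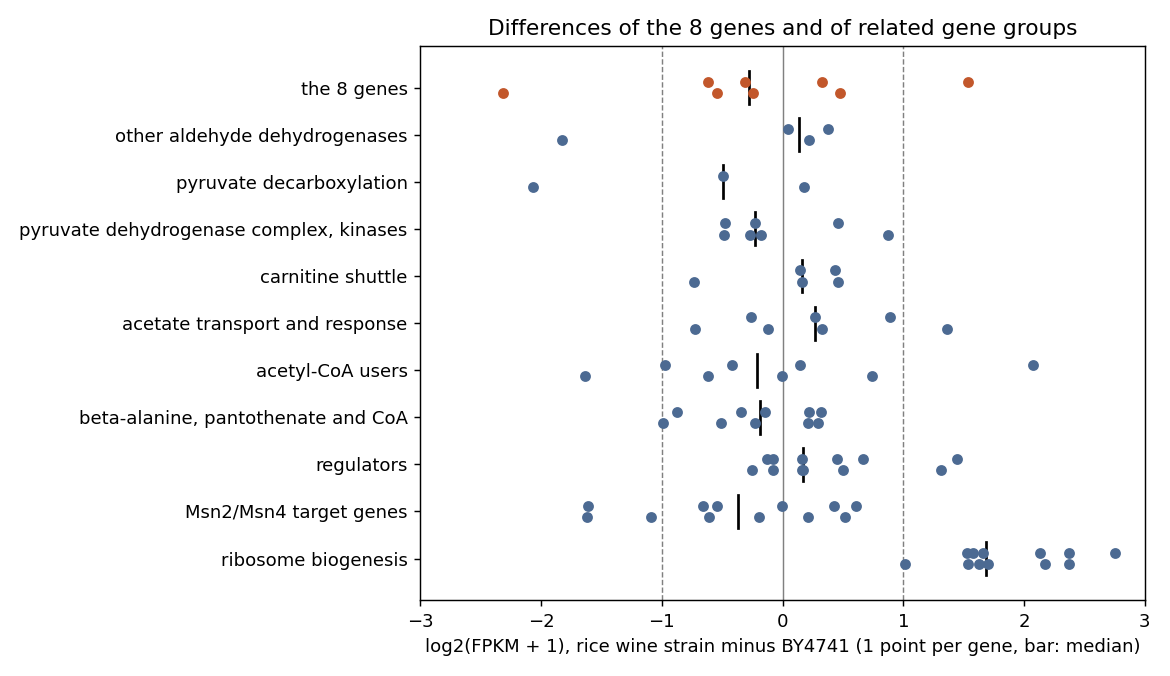
Difference in log2(FPKM + 1), rice wine strain minus BY4741, for the 8 genes (red) and the genes of 10 related lists (blue), 1 point per gene, with a black bar at each median. Dashed lines mark 2-fold; the 8 genes spread from -2.31 to 1.54 around a median of -0.28, and the 12 ribosome biogenesis genes all lie above the upper dashed line.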

How the data were processed

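Polyadenylated RNA of BY4741 and of the rice wine strain, 1 library each, was sequenced from a pool of 2 biological replicates. According to the submitters' processing notes, reads were mapped to sacCer3 with TopHat2 2.0.4 and quantified with Cufflinks 2.0.2. The authors deposited an FPKM value and a count signal for each gene, the latter being fragments divided by a factor for each library. Their table of comparisons was used for its FPKM of each strain only, and its fold changes, test statistics, p-values and q-values were not used. A row without a gene name, with 0.806% (BY4741) and 0.309% (rice wine strain) of the deposited counts, was left out.

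The worth of 1 fragment, 0.797 deposited counts in BY4741 and 1.25 in the rice wine strain, was taken as the largest step for which the fraction of counts under 200 that are whole multiples (tolerance 0.02 fragments) fell short of the best fraction by at most 0.1. Within 0.1 of a fragment, 82.7% and 82.1% of the values above 0 were whole, so no count model was used. Intervals of 1 level are exact Poisson intervals and those of a ratio exact conditional binomial ones. Differences are of log2(FPKM + 1), which shrinks differences of genes with low levels. No gene was filtered unless stated.

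The gene names were fixed by rule: all 8 genes, list genes past 2-fold or the most abundant gene of a list with none, the 3 genes nearest to the highest and the lowest difference, the labelled deletions, and genes that share a locus. Neighbouring genes and some list genes were named after their values were seen. The members and lists were chosen with earlier results of these data known. Alternatives covered the pseudocount, scaling, source of FPKM, fold limit, filter and unit. The calculations were tested on simulated data. There the library factors evened out the depths, so the test could not show a shift from scaling. Python 3.11.15, NumPy 2.4.6, pandas 2.3.3, SciPy 1.17.1, Biopython 1.88 and matplotlib 3.10.9 were used.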

Additional observations from a re-analysis of the deposited data

How the results depend on the processing

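No paired analysis was possible because there is only 1 library for each strain, which also leaves no replicate to omit. Of 40 alternative values of the differences of the 8 genes, 24 lay within the counting interval and 16 moved beyond it, and none of the 40 changed sign. Scaling to the fragments on genes was not tried, and would lower every log2 ratio by more than the scalings that were. The sign of ACS1, at 0.12 under the same summed FPKM, may not hold under it. Over the settings that were tried, ALD4 ran from 1.32 to 1.54 and ALD5 from -2.51 to -1.84, the last with a pseudocount of 10. These ranges leave out the scaling to the fragments on genes, under which ALD4 would be less high and the lower members lower still. Scaling both libraries to the same summed FPKM lowers every log2 ratio by 0.21, which left ACS1 at 0.12, and scaling to the median ratio of genes lowers it by 0.028. At a limit of 4-fold, 0 genes were higher, and at 1.5-fold, 2 genes were lower. With the FPKM of the authors' table of comparisons, the share of ALD4 in the ALD genes was 43.3% in BY4741 and 74.1% in the rice wine strain, and that of ACS1 in the ACS pair 79.4% and 77.6%. From the deposited counts in place of FPKM, the share of ALD4 was 42.9% and 73.9%, and that of ACS1 81.2% and 79.6%. That table joins ALD6, MFM1 and YPL062W in 1 locus. The step of the highest share, an alternative chosen after seeing the data, gave 2934 fragments of ALD5 in BY4741 and 716 in the rice wine strain, which would narrow the counting intervals. The directions follow the column headings, as do the strain names in the authors' table of comparisons.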

Other observations

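Stress genes that share the activators Msn2 and Msn4 with ALD2 and ALD3 differed in both directions. Of 12 such genes, 3 were at least 2-fold lower in the rice wine strain and none at least 2-fold higher, beside 9.84% and 12.4% of all genes, and their median difference was -0.37, with 8 below 0 and 4 above. The lower genes were CTT1, a catalase gene, at 825 FPKM in BY4741 and 269 in the rice wine strain, SSA4, a chaperone gene, at 120.3 and 38.5, and PNC1, a nicotinamidase gene, at 1238 and 581. The genes above 0 were GRE3, TPS2, SSA3 and GSY2, with differences of 0.61, 0.52, 0.42 and 0.21. HSP12, among the most abundant transcripts of both libraries, had 49758 FPKM in BY4741 and 49720 in the rice wine strain.

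In the plane of log2(FPKM + 1) of both libraries, the genes nearest to ALD4 were YFL031C-A, PIL1 and YPL135C-A, at distances of 0.19, 0.27 and 0.28. PIL1, a gene of plasma membrane eisosomes, had 1215 FPKM in BY4741 and 2748 in the rice wine strain. The genes nearest to ALD5 were AMN1, COX5B and YHI9, at 0.19, 0.27 and 0.32. COX5B, the isoform of a cytochrome c oxidase subunit made at low oxygen, had 76.3 FPKM in BY4741 and 19.1 in the rice wine strain, and AMN1, a gene of mother and daughter cell separation, had 74.6 and 17.3. With 2 libraries this likeness rests on 2 values per gene.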
